A study of Rattus norvegicus with 20 samples.

Results

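The heat shock proteins described here were 10 rat genes of the cytosolic and mitochondrial chaperone system: Hspa1b, Hspa8, Hsp90aa1, Hsp90ab1, Hsph1, Dnajb1, Dnaja1, Hspb1, Hspd1 and Hspe1. They were chosen by name, and every probe set annotated to them was taken. The 10 genes had 15 of the 31042 probe sets analysed. Of these, 11 carried only the member's name and 4 carried a second gene's name too. Hsp90ab1, Hsph1, Dnajb1, Dnaja1, Hspb1, Hspd1 and Hspe1 had probe sets of their own and were 7 of the 14217 genes tested. Hspa1b, Hspa8 and Hsp90aa1 were read only by shared probe sets, so their signal cannot be assigned to 1 gene.

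Liver RNA was hybridised from male rats of the Harlan Sprague-Dawley strain that took triphenyl phosphate by oral gavage. This compound is added to plastics to keep them soft and to slow burning. All groups received corn oil: 5 arrays came from the vehicle group (0 mg/kg) and 3 each from rats given 55, 110, 220, 440 or 881 mg/kg in 4 daily doses. Sacrifice was on day 5. The dose named 440 mg/kg in the sample labels is 441 mg/kg in the design text. The treatment text counts 5 groups of 3 rats, whereas the labels list 6 groups and 5 vehicle arrays, and no label ties an array to a rat; the p-values therefore reflect only the spread among arrays, part of which may be technical.

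Chaperones of this kind bind unfolded or newly made proteins and use ATP to release them in steps. HSP70 proteins take their clients from J proteins, pass some of them on to HSP90, and are reset by exchange factors such as the HSP110 proteins, while HSP60 and its lid HSP10 fold proteins inside the mitochondrion. Many of these genes are activated by the heat shock factor HSF1, which binds repeats of the unit nGAAn in alternating orientation; the liver also expresses several of them at high levels without stress.

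Most of the members searched carry the letters of this element before their start sites. The sequences below are shown because they mark which members have adjacent units. The letters GAANNTTC and TTCNNGAA, each of which reads the same on both strands, were searched in the 250 bases before each start site of the RefSeq promoter windows (assembly GRCr8). The table held 8 of the 10 members, without Hspa1b and Hsp90aa1. At least 1 match was found in 7 of these 8, against 13.5% of the 33469 windows in the table. At least 2 matches were found in 5 members (1.75% of all windows), and 3 units in a row, GAANNTTC extended by NNGAA or TTCNNGAA extended by NNTTC, in 4 (0.663%). The 4 were Hspa8, Hsph1, Hspd1 and Hspe1. Overlapping matches were counted separately, and capitals below mark the matched letters, overlapping matches joined.

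Hspa8, 55 bases before the start: gggcggaacccTTCTGGAAGGTTCtaagac
Hspa8, 213 bases before the start: ggggcgagcgtGAAAGTTCCAGAAcgctgc
Hsph1, 36 bases before the start: aatgccgcagaTTCTGGAAAGTTCtcctca
Hspd1, 242 bases before the start: gcggggccTTCCGGAAGGTTCTAGAAccga
Hspe1, 65 bases before the start: gccgcgctcggTTCTAGAACCTTCCGGAAg
Dnajb1, 11 bases before the start: cgacgcatcgggaggggcgGAAGGTTCtgg
Dnaja1, 181 bases before the start: aaaagcctctaGAAGATTCtacaaggatcg
Hspb1, 129 bases before the start: cttcaactagaGAAGTTTCcagatgggggc

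The pieces are 30 bases long and run 5′ to 3′ on the strand of the gene, and each distance is from the first base of the match. The Hspa8 pieces lie on the plus strand at chr8:50080448-50080477 and chr8:50080290-50080319, and the Hsph1 piece on the plus strand at chr12:10427321-10427350. The Dnaja1 piece is on the plus strand at chr5:60638212-60638241, the Dnajb1 piece on the minus strand at chr19:41431142-41431171 and the Hspb1 piece on the minus strand at chr12:26432412-26432441. Hspd1 and Hspe1 are neighbours on chromosome 9 and are read in opposite directions. Their pieces, at chr9:64084258-64084287 on the minus strand and chr9:64084251-64084280 on the plus strand, hold the same site: the 18 capitals of the Hspe1 piece are the reverse complement of those of the Hspd1 piece, and the windows share 211 of their 300 bases. The start sites used for Hspd1 and Hsp90ab1 lie inside the RefSeq spans of these genes. The Hspd1 site therefore lies within its gene's span, which reaches chr9:64084332. The Hsp90ab1 window held neither motif, nor did that of Hspa1a, the neighbour of Hspa1b. This says only that these letters are absent from those windows. The matches are descriptions of sequence, and binding was not measured.

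Array medians lay between 6.31 and 6.39 (log2). On 881 mg/kg replicate 2 the 3′ end of the Gapdh control transcript read 5.24 above its 5′ end, against 0.814 to 1.64 on the other 19 arrays, and that array's median correlation with the others was 0.980 against 0.990 to 0.994. Changes from vehicle and counts of calls at 881 mg/kg are therefore given with and without it. The hepatocyte markers, among them albumin and transthyretin, had vehicle means between 9.87 and 15.34 (log2), the tissue on the labels. At 881 mg/kg 7 of 8 measured Kupffer cell and macrophage markers, 7 of 10 stellate cell and fibroblast markers and 3 of 6 endothelial markers fell. Without replicate 2 these counts were 3, 2 and 1, where the share of all genes called went from 19.5% to 11.6%. Some markers that were no longer called kept changes of similar size (Csf1r -0.70 and -0.72, Pecam1 -0.52 and -0.50). Others shrank without that array, such as C1qb (-1.13 and -0.70) and Col1a2 (-0.83 and -0.44). Of 4 measured blood cell markers 2 fell with that array and without it. Among 9 hepatocyte markers Apoa1 rose (0.34, and 0.36 without that array) and Cyp2e1 fell (-0.34 with it and without it). Cps1 and Serpina1 fell (-0.19 and -0.16) and were not called without it. Among 6 lymphocyte markers Cd3d fell (-0.31, and -0.41 without it), while Cd79b fell (-0.26) only with it. Among 5 bile duct markers Epcam rose (0.86, and 0.65 without it). The other markers of these lists were not called. The mean log2 level of the Kupffer list was 10.13 to 10.47 on the vehicle arrays and 9.26 to 9.93 on the 881 mg/kg arrays, that of the stellate list 7.46 to 7.96 and 7.07 to 7.50, that of the endothelial list 9.38 to 9.71 and 8.81 to 9.43, and that of the blood cell list 8.06 to 8.78 and 6.71 to 7.67. In bulk liver RNA, fewer cells of a type and less RNA per cell cannot be told apart, and the part of these shifts in the results below was not tested.

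Few of the heat shock proteins passed the test at any dose, and with 7 members the counts below cannot set them apart from genes at large. Each dose was set against vehicle in 1 limma model, and a call required an adjusted p under 0.05 over all genes tested. At 55, 110 and 220 mg/kg limma called 0 of the 7 members with their own probe set, with 1, 1 and 3 of them at an unadjusted p under 0.05; 2.81%, 3.61% and 3.43% of all genes were called. At 440 mg/kg limma called 0 of 7, with 2 at an unadjusted p under 0.05, against 11.0% of all genes. The highest dose, 881 mg/kg, gave a call for 1 of 7, Hsph1, which rose, against 19.5% of all genes called in either direction. When replicate 2 was left out, limma called 0 of 7, with 3 at an unadjusted p under 0.05, against 11.6% of all genes. Between 881 and 440 mg/kg limma called 0 of 7, with 2 at an unadjusted p under 0.05, where 0.260% of all genes were called. A trend over the dose steps, coded 0 to 5, was called for 1 of 7, Dnajb1, against 21.7% of all genes. With the replicate number as a block in the model, Hsph1 was called for the trend and Dnajb1 was not, beside 2775 of 14217 genes. Replicate numbers 4 and 5 occur only in the vehicle group, so vehicle replicates 4 and 5 do not inform the slope of that fit.

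In the fit over all 31042 probe sets, which holds the shared ones, 0 of 15 member probe sets were called at 55, 110, 220 and 440 mg/kg or between 881 and 440 mg/kg, with 2, 1, 4, 3 and 4 at an unadjusted p under 0.05. The shares of all probe sets called there were 1.34%, 1.91%, 1.70%, 6.08% and 0.158%. The 881 mg/kg comparison called 1 of 15, against 12.5% of all probe sets, and the trend 1 of 15, against 14.1%. These were the same Hsph1 and Dnajb1 probe sets as in the gene fit. Leaving out replicate 2, the 881 mg/kg comparison again called 1 of 15, the other Hsph1 probe set, against 6.72% of all probe sets.

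Over the brightest probe set of each of the 10 members, the median log2 change was -0.16 at 55, -0.11 at 110, -0.20 at 220, 0.02 at 440 and 0.13 at 881 mg/kg (0.12 without replicate 2). At 55 mg/kg 9 of the 10 were below the vehicle mean and at 220 mg/kg 8 of 10, while 6 of 10 were above it at 881 mg/kg (7 of 10 without replicate 2). All doses share the same 5 vehicle arrays. The median change over all probe sets, many of them dimmer than those of the members, stayed between -0.02 and 0.00 at the 5 doses. Over genes with a mean of at least 6 (log2) it was 0.04 at 881 mg/kg.

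**Figure D1:**
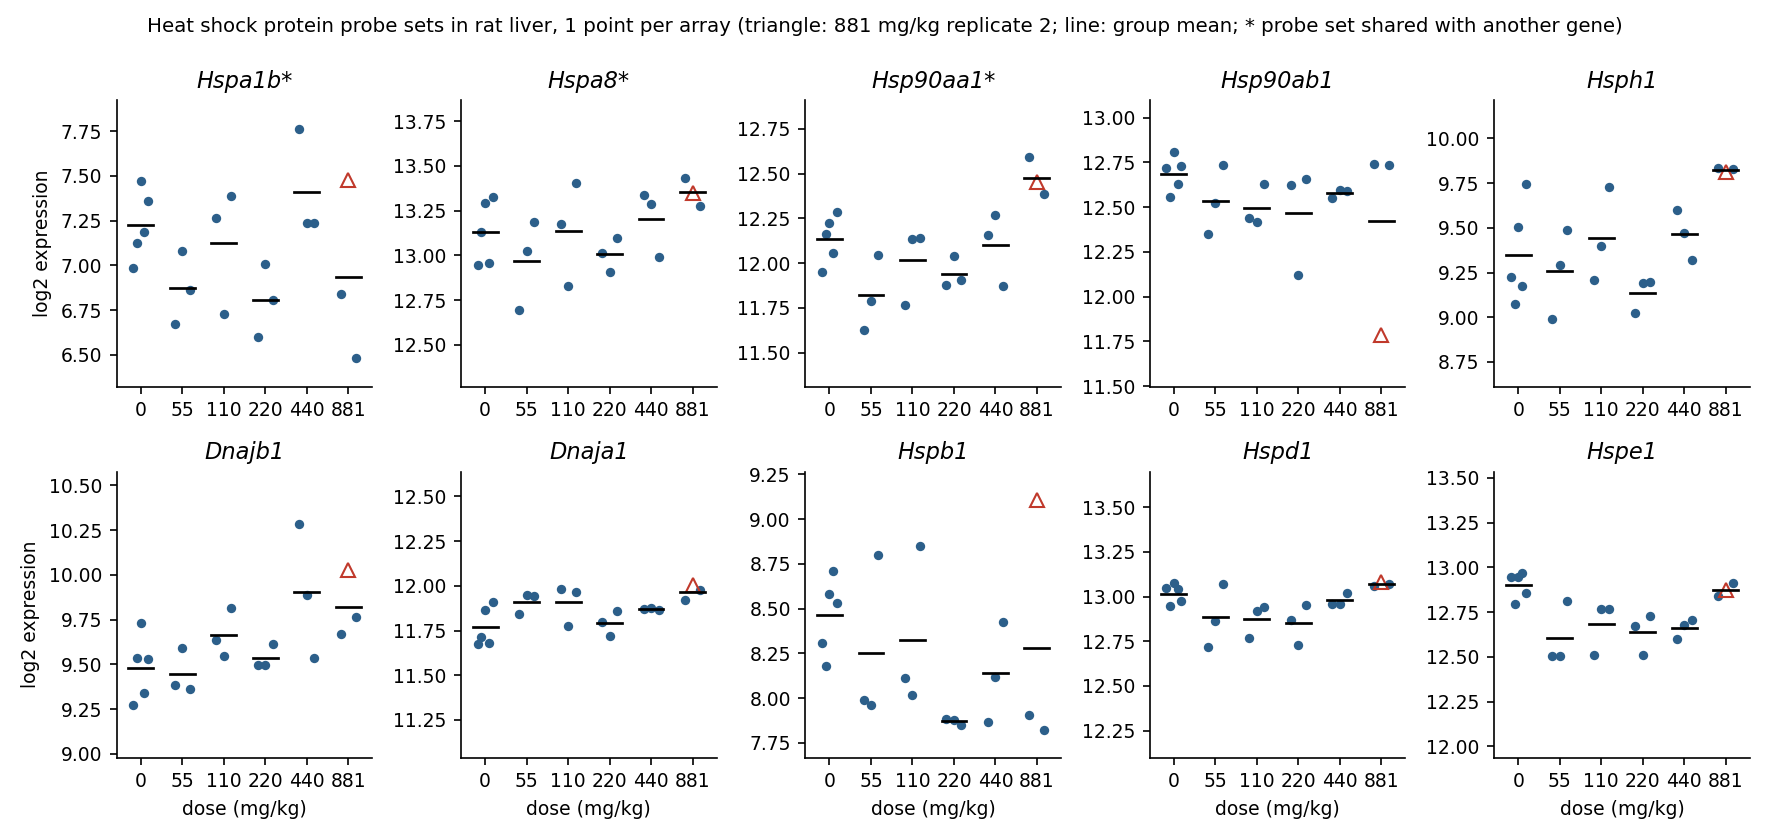
Log2 expression (vertical axes, each spanning 1.6 units) of the brightest probe set of the 10 heat shock protein genes by dose in mg/kg (horizontal axes); each point is 1 array, the line is the group mean and the triangle is 881 mg/kg replicate 2. The 3 Hsph1 values at 881 mg/kg lie above all 5 vehicle values, and the triangle stands apart from the other 881 mg/kg arrays for Hsp90ab1 and Hspb1.

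Among the HSP70 proteins, Hspa8 encodes the constitutive cytosolic form. Its only probe set is shared with Haus8l2, and the probe set's source sequence is the Hspa8 transcript. It read 12.95, 13.13, 13.29, 12.96 and 13.33 (log2) on the vehicle arrays and 13.44, 13.35 and 13.28 at 881 mg/kg. The 881 mg/kg values filled the upper end of the vehicle range, and 2 of them exceeded every vehicle array. The change was 0.22 (SE 0.13, adjusted p = 0.297), and 0.23 without replicate 2 (adjusted p = 0.450). At 55 mg/kg the 3 arrays read 12.70, 13.02 and 13.19, and the change was -0.16 (adjusted p = 0.708).

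Hspa1b and its neighbour Hspa1a encode the inducible HSP70 and share 1 probe set, whose source sequence RefSeq now assigns to Hspa1a. The shared probe set read 6.99, 7.12, 7.47, 7.19 and 7.36 in the vehicle group. At 440 mg/kg it read 7.76, 7.24 and 7.24, and at 881 mg/kg 6.84, 7.48 and 6.48. The 881 mg/kg group thus lay on both sides of the vehicle range, with replicate 2 above it and replicates 1 and 3 below it. The change was 0.19 at 440 mg/kg (SE 0.20, adjusted p = 0.673) and -0.29 at 881 mg/kg (adjusted p = 0.359). Without 881 mg/kg replicate 2 the latter was -0.57 (adjusted p = 0.0752). At 220 mg/kg the arrays read 6.60, 7.01 and 6.81, a change of -0.42 (95% interval -0.83 to -0.01, adjusted p = 0.376). No dose gave a call for the shared probe set.

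Hspa1a also has a probe set of its own, which gave a call at 220 mg/kg. It read 6.35, 6.61, 7.02, 6.64 and 6.85 in the vehicle group and 6.30, 5.89 and 5.87 at 220 mg/kg, all 3 below the vehicle range. Hspa1a fell by 0.67 (SE 0.18, adjusted p = 0.0490 in the gene fit). The call was close to the threshold and held in 10 of 28 alternatives, and in 6 of the 20 that leave out 1 array (changes from -0.81 to -0.59, adjusted p from 0.00232 to 0.214 over the 28). At 881 mg/kg its change was -0.06 (adjusted p = 0.865), and -0.33 without replicate 2 (adjusted p = 0.234).

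Hsph1, an HSP110 protein that resets HSP70 by exchanging its nucleotide, gave the only call at a single dose. Its brighter probe set read 9.23, 9.07, 9.51, 9.18 and 9.75 in the vehicle group and 9.83, 9.81 and 9.83 at 881 mg/kg. All 3 arrays exceeded every vehicle array, and they spread less than the vehicle arrays did: the means were 9.35 ± 0.28 (SD, n = 5) and 9.82 ± 0.01 (SD, n = 3). Hsph1 rose by 0.48 (SE 0.14, 1.39-fold, adjusted p = 0.0239). At 440 mg/kg the values 9.60, 9.47 and 9.32 lay inside the vehicle range. At 55, 110 and 220 mg/kg the changes were -0.09, 0.10 and -0.21, and none was called.

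The Hsph1 call rested on a narrow margin. It was lost, with changes of 0.41 to 0.48, when vehicle replicate 1, 2 or 4 or 881 mg/kg replicate 1, 2 or 3 was left out (adjusted p from 0.0514 to 0.0675), and when only the compared groups were fitted (adjusted p = 0.0516). With the mean of its probe sets the change was 0.28 (adjusted p = 0.308), and with the Gapdh 3′ to 5′ difference as a covariate it was 0.48 (adjusted p = 0.0508). The dimmer Hsph1 probe set read 7.35, 7.00, 7.74, 7.25 and 7.78 in the vehicle group and 8.03, 6.37 and 8.10 at 881 mg/kg. Replicates 1 and 3 lay above all vehicle arrays and replicate 2 below all of them. With all arrays its change was 0.08 (adjusted p = 0.894), and without replicate 2 it was 0.64 (adjusted p = 0.0372).

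Dnajb1 encodes an HSP40 J protein that delivers clients to HSP70. Its brighter probe set read 9.27, 9.54, 9.73, 9.34 and 9.53 in the vehicle group, 10.28, 9.89 and 9.54 at 440 mg/kg and 9.67, 10.02 and 9.77 at 881 mg/kg. In each of these dosed groups 2 of 3 arrays exceeded every vehicle array and the third lay inside the vehicle range. The change was 0.42 at 440 mg/kg (SE 0.14, adjusted p = 0.0519) and 0.34 at 881 mg/kg (SE 0.14, adjusted p = 0.0856), so neither was called. Single arrays decided this: the 440 mg/kg change was called when replicate 3 of the vehicle group (adjusted p = 0.0331), replicate 3 at 440 mg/kg (0.0103) or replicate 2 at 881 mg/kg (0.0389) was left out. The 881 mg/kg change was called when replicate 3 of the vehicle group (adjusted p = 0.0499) or replicate 1 or 3 at 440 mg/kg (0.0433 and 0.0479) was left out. Without replicate 2 of its own group it was 0.24 (adjusted p = 0.342). Over the dose steps Dnajb1 rose by 0.08 log2 per step (SE 0.02, adjusted p = 0.0182). With the replicate number as a block in the model, the slope was 0.08 and not called (adjusted p = 0.0545). That fit takes nothing from vehicle replicates 4 and 5, whose numbers no other group holds. Without 881 mg/kg replicate 2, whose value was the highest of its group, the slope was 0.07 (adjusted p = 0.0554). The dimmer Dnajb1 probe set changed by 0.23 at 440 mg/kg (adjusted p = 0.252) and 0.14 at 881 mg/kg (adjusted p = 0.457; 0.22 without replicate 2, adjusted p = 0.319), and its slope was 0.04 (adjusted p = 0.228).

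Dnaja1 encodes another J protein of HSP70, one anchored by a lipid tail. Its 2 probe sets parted at the highest dose. The brighter read 11.67, 11.71, 11.86, 11.68 and 11.91 in the vehicle group and 11.92, 12.00 and 11.98 at 881 mg/kg, so that all 3 arrays exceeded the vehicle range. The dimmer read 10.77, 10.76, 10.94, 10.82 and 10.93 in the vehicle group and 10.74, 10.21 and 10.64 at 881 mg/kg, so that all 3 arrays lay below the vehicle range. In the fit over all probe sets the changes were 0.20 (adjusted p = 0.0834) and -0.31 (adjusted p = 0.0883). Neither was called, and the mean of both probe sets changed by -0.06 (adjusted p = 0.669). Without 881 mg/kg replicate 2 the changes were 0.18 and -0.15, still of opposite sign. In the gene fit the brighter probe set was called without vehicle replicate 3 or 5 (adjusted p = 0.0484 and 0.0318), and in the probe set fit the dimmer one was called without 881 mg/kg replicate 1 (adjusted p = 0.0378). At 55 mg/kg, by contrast, the dimmer probe set read 10.94, 11.01 and 11.02, above all vehicle arrays.

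**Figure D2:**
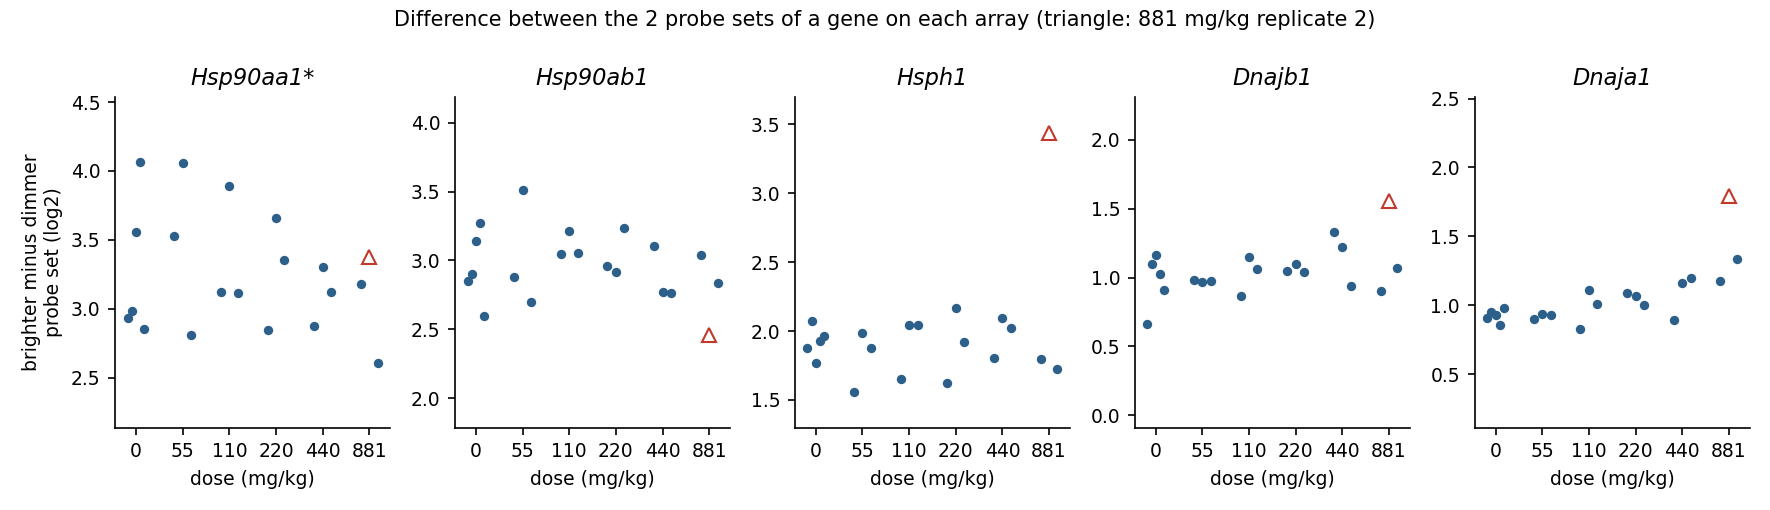
Log2 value of the brighter minus the dimmer probe set of 5 heat shock protein genes on each array (vertical axes, each spanning 2.4 units) by dose in mg/kg (horizontal axes); each point is 1 array and the triangle is 881 mg/kg replicate 2. For Hsph1 the triangle stands at 3.44 against 1.56 to 2.17 on the other 19 arrays.

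The difference between the 2 probe sets of a gene was itself unusual on 881 mg/kg replicate 2. For Hsph1 it was 3.44 (log2) there and 1.56 to 2.17 on the other 19 arrays, for Dnaja1 1.80 and 0.825 to 1.34, and for Dnajb1 1.55 and 0.664 to 1.33. For Hsp90ab1 it was 2.46, below the 2.60 to 3.51 of the others. For Hsp90aa1 it was 3.37, inside the range of 2.60 to 4.07. This is the array with the large 3′ to 5′ difference of Gapdh; the part of that difference in these gaps was not tested. Across the remaining groups the Hsp90aa1 gap spread most widely of the 5.

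HSP90 completes the folding of kinases and steroid receptors handed over by HSP70. Both probe sets of Hsp90aa1, the stress-inducible form, are shared with a pseudogene, Hsp90aa1-ps17. The brighter shared probe set read 11.95, 12.16, 12.22, 12.05 and 12.29 in the vehicle group and 12.59, 12.45 and 12.39 at 881 mg/kg, all 3 above the vehicle range. Its change was 0.34 (SE 0.11, adjusted p = 0.0585), just outside the threshold, and 0.35 without replicate 2 (adjusted p = 0.127). It was called when replicate 5 of the vehicle group, replicate 3 at 55 mg/kg, replicate 1 at 110 mg/kg or replicate 3 at 440 mg/kg was left out (adjusted p from 0.0426 to 0.0482). The dimmer shared probe set read 9.02, 9.18, 8.67, 7.99 and 9.43 in the vehicle group and 9.42, 9.08 and 9.78 at 881 mg/kg. It overlapped the vehicle range, with a change of 0.57 (SE 0.31, adjusted p = 0.260) and of 0.74 without replicate 2 (adjusted p = 0.251). At 55 mg/kg the brighter probe set read 11.62, 11.79 and 12.05, and 2 of these arrays lay below every vehicle array. The change there was -0.32 (adjusted p = 0.226).

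Hsp90ab1 encodes the constitutive HSP90. It read 12.72, 12.56, 12.81, 12.63 and 12.73 in the vehicle group and 12.74, 11.78 and 12.74 at 881 mg/kg. Replicates 1 and 3 lay inside the vehicle range, and replicate 2 was the lowest of all 20 arrays. The change was -0.27 with that array (adjusted p = 0.290) and 0.05 without it (adjusted p = 0.840). At 55, 110, 220 and 440 mg/kg the changes ran from -0.22 to -0.11, and none was called. The dimmer Hsp90ab1 probe set changed by -0.10 at 881 mg/kg (adjusted p = 0.809), and by 0.06 without replicate 2 (adjusted p = 0.914).

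Hspb1, the small heat shock protein that holds unfolded proteins without ATP, varied most between arrays of 1 group among the members' brightest probe sets. It read 8.31, 8.18, 8.58, 8.71 and 8.53 in the vehicle group and 7.88, 7.88 and 7.85 at 220 mg/kg. All 3 arrays at 220 mg/kg lay below the vehicle range, with a change of -0.59 (SE 0.26, 95% interval -1.13 to -0.05, adjusted p = 0.251). The 881 mg/kg arrays read 7.90, 9.11 and 7.82, where replicate 2 was the highest of all 20 arrays and replicate 3 the lowest. The change was -0.18 with replicate 2 (adjusted p = 0.664) and -0.60 without it (adjusted p = 0.0950). Without that array the Hspb1 slope over the dose steps was -0.11 and passed the threshold (adjusted p = 0.0398), while with all arrays it was -0.06 (adjusted p = 0.390). At 55 and 110 mg/kg replicate 3 read 8.80 and 8.85, above every vehicle array, and the other arrays of those groups read 7.96 to 8.11, below them.

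Hspd1 is the mitochondrial chaperonin HSP60 and Hspe1 its lid, HSP10. Hspe1 read 12.95, 12.79, 12.95, 12.97 and 12.86 in the vehicle group. It read 12.51, 12.50 and 12.81 at 55 mg/kg, 12.51, 12.77 and 12.77 at 110 mg/kg, 12.67, 12.51 and 12.73 at 220 mg/kg and 12.60, 12.68 and 12.71 at 440 mg/kg. Apart from 55 mg/kg replicate 3, each of these 12 arrays lay below every vehicle array. Values of 12.84, 12.87 and 12.91 at 881 mg/kg were inside the vehicle range. The changes at the 4 lower doses were -0.30, -0.22, -0.26 and -0.24, with 95% intervals below 0 and adjusted p from 0.0650 to 0.177, so none was called. Without 55 mg/kg replicate 3 Hspe1 was called at 55 mg/kg (-0.40, adjusted p = 0.0322) and at 440 mg/kg (adjusted p = 0.0474). At 881 mg/kg the change was -0.03 (95% interval -0.21 to 0.15), and -0.03 again without replicate 2.

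Hspd1 was also below its vehicle mean at the 4 lower doses, by less than Hspe1. It read 13.05, 12.95, 13.08, 13.04 and 12.97 in the vehicle group, 12.72, 12.87 and 13.07 at 55 mg/kg, 12.77, 12.92 and 12.94 at 110 mg/kg and 12.87, 12.73 and 12.95 at 220 mg/kg. The 110 mg/kg arrays all lay below the vehicle range, and at the other lower doses the groups overlapped. The 3 arrays at 881 mg/kg read 13.06, 13.08 and 13.07, near the top of the vehicle range. The changes were -0.13, -0.14, -0.17, -0.04 and 0.05 from 55 to 881 mg/kg, and none was called (adjusted p from 0.280 to 0.808). Without replicate 2 the 881 mg/kg change was again 0.05.

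**Figure D3:**
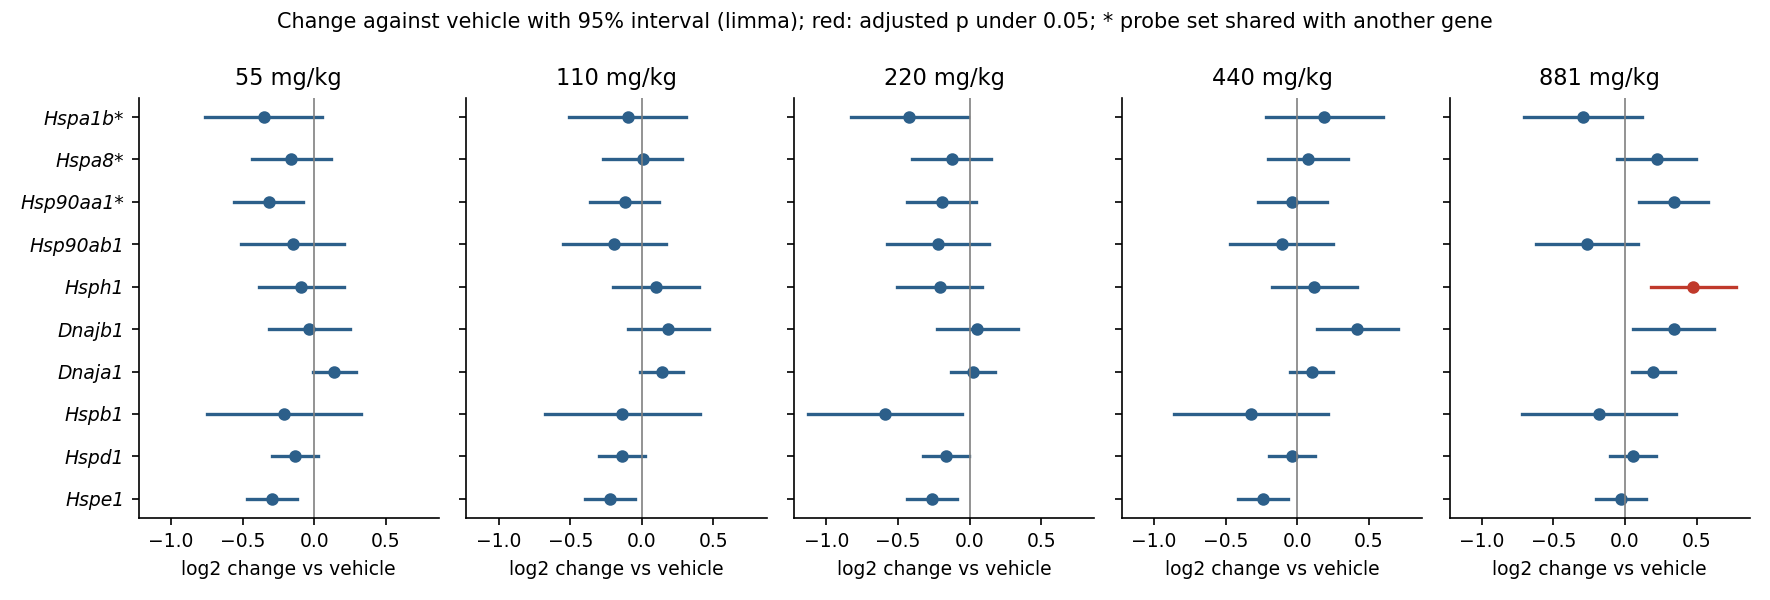
Log2 change against vehicle (horizontal axes) of the brightest probe set of each heat shock protein gene (vertical axis) at 5 doses; points are limma estimates, bars are 95% intervals, and red marks an adjusted p under 0.05. Only Hsph1 at 881 mg/kg is red (0.48), and the Hspe1 intervals lie below 0 at 55, 110, 220 and 440 mg/kg.

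Counts of members whose groups did not overlap with vehicle can be set beside the same counts over all genes. They were 0 of 7 at 55 mg/kg (13.6% of all genes), 2 of 7 at 110 mg/kg (12.9%; Hspd1 and Hspe1), 2 of 7 at 220 mg/kg (13.0%; Hspb1 and Hspe1), 1 of 7 at 440 mg/kg (21.2%; Hspe1) and 2 of 7 at 881 mg/kg (21.7%; Hsph1 and Dnaja1). Between 881 and 440 mg/kg 4 of 7 did not overlap, against 13.2% of all genes. These were Hsph1, Dnaja1, Hspd1 and Hspe1, each higher at 881 mg/kg, by 0.36, 0.10, 0.09 and 0.21. None of the 4 was called (adjusted p from 0.430 to 0.798), and the largest SE among them was 0.16.

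The members differed widely in how much they varied between arrays of 1 group. For the brightest probe set of each member, the within-group SD over all 20 arrays was 0.083 for Dnaja1, 0.093 for Hspd1 and 0.107 for Hspe1. These were below the median of 0.142 over all probe sets. It was 0.164 for the Hsp90aa1 probe set, 0.194 for the Hspa8 probe set, 0.199 for Dnajb1 and 0.211 for Hsph1. It was widest for Hsp90ab1 at 0.258, the Hspa1b probe set at 0.300 and Hspb1 at 0.400. For Hsp90ab1 and Hspb1 881 mg/kg replicate 2 was an extreme of all 20 arrays, as it was for the narrowly spread Dnaja1 and Hspd1. These SDs include that array. In the vehicle group alone the SD was 0.098 for Hsp90ab1, beside 0.194 for the Hspa1b probe set and 0.215 for Hspb1.

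Within dose groups some members rose and fell together from array to array. After each dose group's mean was subtracted, Hspd1 and Hspe1 correlated with r = 0.92 and rho = 0.93 over 20 arrays (permutation p = 0.00021 for r, adjusted over the 45 pairs 0.00945, and 0.00051 for rho, adjusted 0.0229). Without the 2 arrays farthest from the Hspd1 median r was 0.91, and without 881 mg/kg replicate 2 it was 0.92. This is the pair whose promoter windows hold the same site, and the part of that site in the correlation was not tested. Hspa8 and Dnaja1 gave r = 0.78 and rho = 0.75 (permutation p = 0.00148 for r, adjusted 0.0289, and 0.00307 for rho, adjusted 0.0373; r = 0.70 without the 2 farthest arrays). Hspa1b and Dnajb1 gave r = 0.71 and rho = 0.72 (permutation p = 0.00193 for r, adjusted 0.0289, and 0.004 for rho, adjusted 0.0373; r = 0.73 without the 2 farthest arrays). Permutations were two-sided and kept arrays within their dose group. They took the arrays of a group as exchangeable. Of 18 arrays numbered 1 to 3, however, 16 deviated most like arrays of their own number in other groups. The replicate number was not removed here, and its part in these correlations was not tested.

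Of the 45 pairs, 3 passed an adjusted p under 0.05 by Pearson's r and 6 by Spearman's rho, and 38 had r above 0. The median r was 0.34, and 0.43 without 881 mg/kg replicate 2. Hspa8 and Hsph1, with r = 0.72, passed by rho (0.79, permutation p = 0.00294, adjusted 0.0373) and not by r (permutation p = 0.0107, adjusted 0.0813); without the 2 farthest arrays r was 0.73. The lowest r, -0.47 for Hspa1b and Hsp90ab1 (permutation p = 0.281, adjusted 0.449; rho = -0.20, permutation p = 0.529, adjusted 0.672), rested on 1 array: without 881 mg/kg replicate 2 it was 0.03, and -0.02 without the 2 farthest arrays. Every value of a pair comes from the same RNA samples, so deviations shared by whole arrays enter each r.

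**Figure D4:**
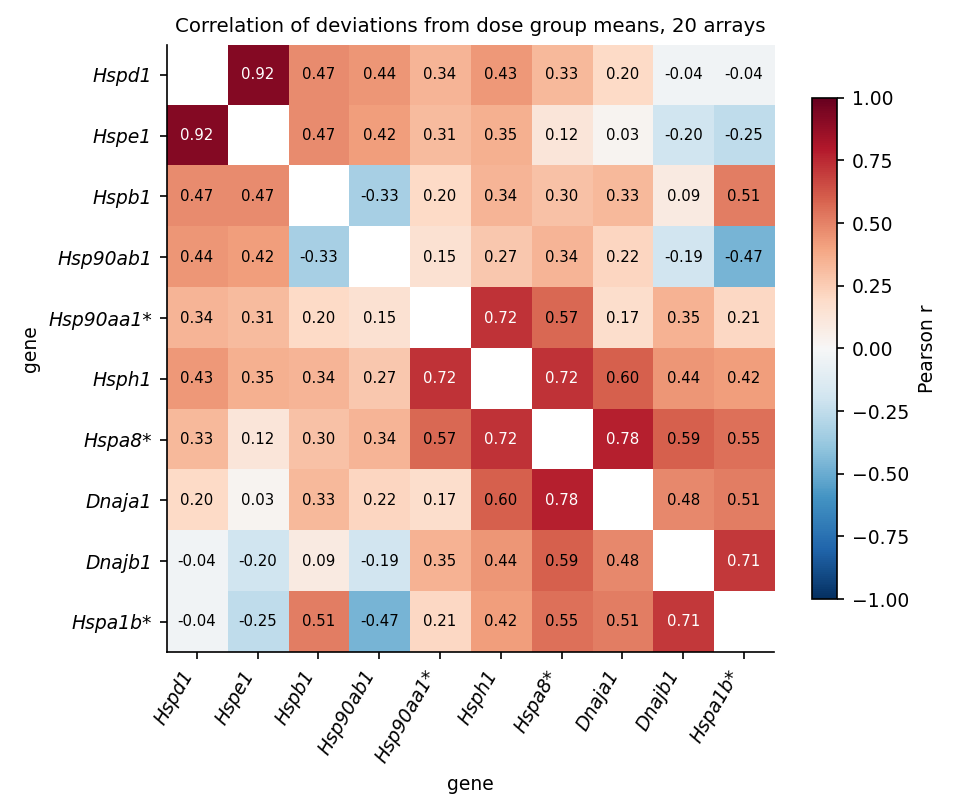
Pearson r between the heat shock protein genes (both axes; colour scale from -1 to 1) after subtraction of each dose group's mean, over 20 arrays; an asterisk marks a probe set shared with another gene. Hspd1 with Hspe1 is darkest (0.92), followed by Hspa8 with Dnaja1 (0.78), and Hspa1b with Hsp90ab1 is lowest (-0.47).

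The genes most like a member over all 20 arrays, dose differences included, are given as a description. The Hspa1b and Hspa1a probe set was most like Spring1 (r = 0.81), Cidec (0.77), Tepsin (0.77) and Tmem115 (0.74) among 14210 genes. Hspa1a's own probe set came 10th (r = 0.72). Hspd1 was most like Chchd10 (r = 0.86), Cct3 (0.85), Cct6a (0.82) and Pgam1 (0.81). Cct3 and Cct6a encode subunits of CCT, the cytosolic chaperonin, and Cct6a read -0.26 at 55 mg/kg and 0.21 at 881 mg/kg against vehicle.

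Around the members stand 100 other chaperone genes, of which 99 were measured. At 881 mg/kg 15 of them rose and 4 fell, or 19.2%, beside 19.5% of all genes. With replicate 2 of that dose left out, 10 rose and 1 fell, or 11.1%, beside 11.6%. At 440 mg/kg 5 rose and 6 fell, or 11.1%, beside 11.0%. At 55, 110 and 220 mg/kg limma called 0 as higher and 1, 2 and 2 as lower. These were 1.01%, 2.02% and 2.02%, beside 2.81%, 3.61% and 3.43% of all genes called in either direction.

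Of 4 heat shock factors and their regulators, limma called 0 at 881 mg/kg, with 1 at an unadjusted p under 0.05: Hsf2, which binds the same element as HSF1, changed most (0.38, adjusted p = 0.0854; 0.30 without 881 mg/kg replicate 2, adjusted p = 0.294). Of 17 other HSP70 and exchange genes 2 rose and 1 fell. Bag1, an exchange factor, rose by 0.45 and Hspa4, an HSP110 relative of Hsph1, by 0.24, and Hspa4l, another, fell by 0.43. Without 881 mg/kg replicate 2 the changes were 0.23 for Bag1 and -0.29 for Hspa4l, neither called (adjusted p = 0.312 and 0.242), and Hspa4 was 0.30 (adjusted p = 0.0297). Of 14 HSP90 co-chaperones 1 rose: Chordc1, by 0.54 (SE 0.12, adjusted p = 0.00325), and by 0.37 without that array (adjusted p = 0.0304).

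Of 7 other small heat shock proteins 2 rose and 1 fell: Hspb6 rose by 0.53, Hspb8, which works with Bag3, by 0.41, and Hspb3 fell by 0.28. When replicate 2 was left out, only Hspb8 was called (0.57, adjusted p = 0.0180), while Hspb6 was 0.41 (adjusted p = 0.0519) and Hspb3 -0.16 (adjusted p = 0.161). Of 12 other cytosolic J proteins 2 rose, Dnajc9, a histone chaperone, by 0.44 and Dnajb4, a relative of Dnajb1, by 0.34, and both stayed called without that array (0.55 and 0.45). Of 13 measured CCT and prefoldin genes limma called 0, with 3 at an unadjusted p under 0.05, and Pfdn6, a prefoldin subunit, changed most (-0.24, adjusted p = 0.175; -0.05 without that array). Of 16 endoplasmic reticulum chaperones Sil1 rose by 0.40 and Serpinh1, the collagen chaperone, fell by 0.71; without 881 mg/kg replicate 2 limma called 0, with 3 at an unadjusted p under 0.05 (Sil1 0.30, adjusted p = 0.121, and Serpinh1 -0.39, adjusted p = 0.155). Stellate cell markers, among them collagen genes, fell at the same dose, as given above, and their part in the Serpinh1 value was not tested. At 440 mg/kg Sil1 rose by 0.38 and Serpinh1 fell by 0.76 (limma adjusted p = 0.0347 and 0.0175). The Serpinh1 mean was 9.24 (log2) in the vehicle group and 8.70, 8.79, 8.79, 8.49 and 8.53 at 55, 110, 220, 440 and 881 mg/kg.

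The list of mitochondrial chaperones and proteases held the largest share of calls at 881 mg/kg among the 8 chaperone lists: 7 of 16 rose and 1 fell. Its median change was 0.16, beside 0.00 over all genes. Afg3l2, a protease of the inner membrane, rose by 0.57 and Dnajc19, part of the import motor, by 0.47. Clpx, which unfolds proteins for the matrix protease ClpP, fell by 0.80 (SE 0.12, adjusted p = 0.000166), and by 0.77 without 881 mg/kg replicate 2. Afg3l2 and Dnajc19 were 0.43 and 0.36 without it. Without that array 5 rose and 1 fell, or 37.5% of the list, beside 11.6% of all genes. Hspd1 and Hspe1, the chaperonin of the same compartment, changed by 0.05 and -0.03 at this dose, and neither was called.

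**Figure D5:**
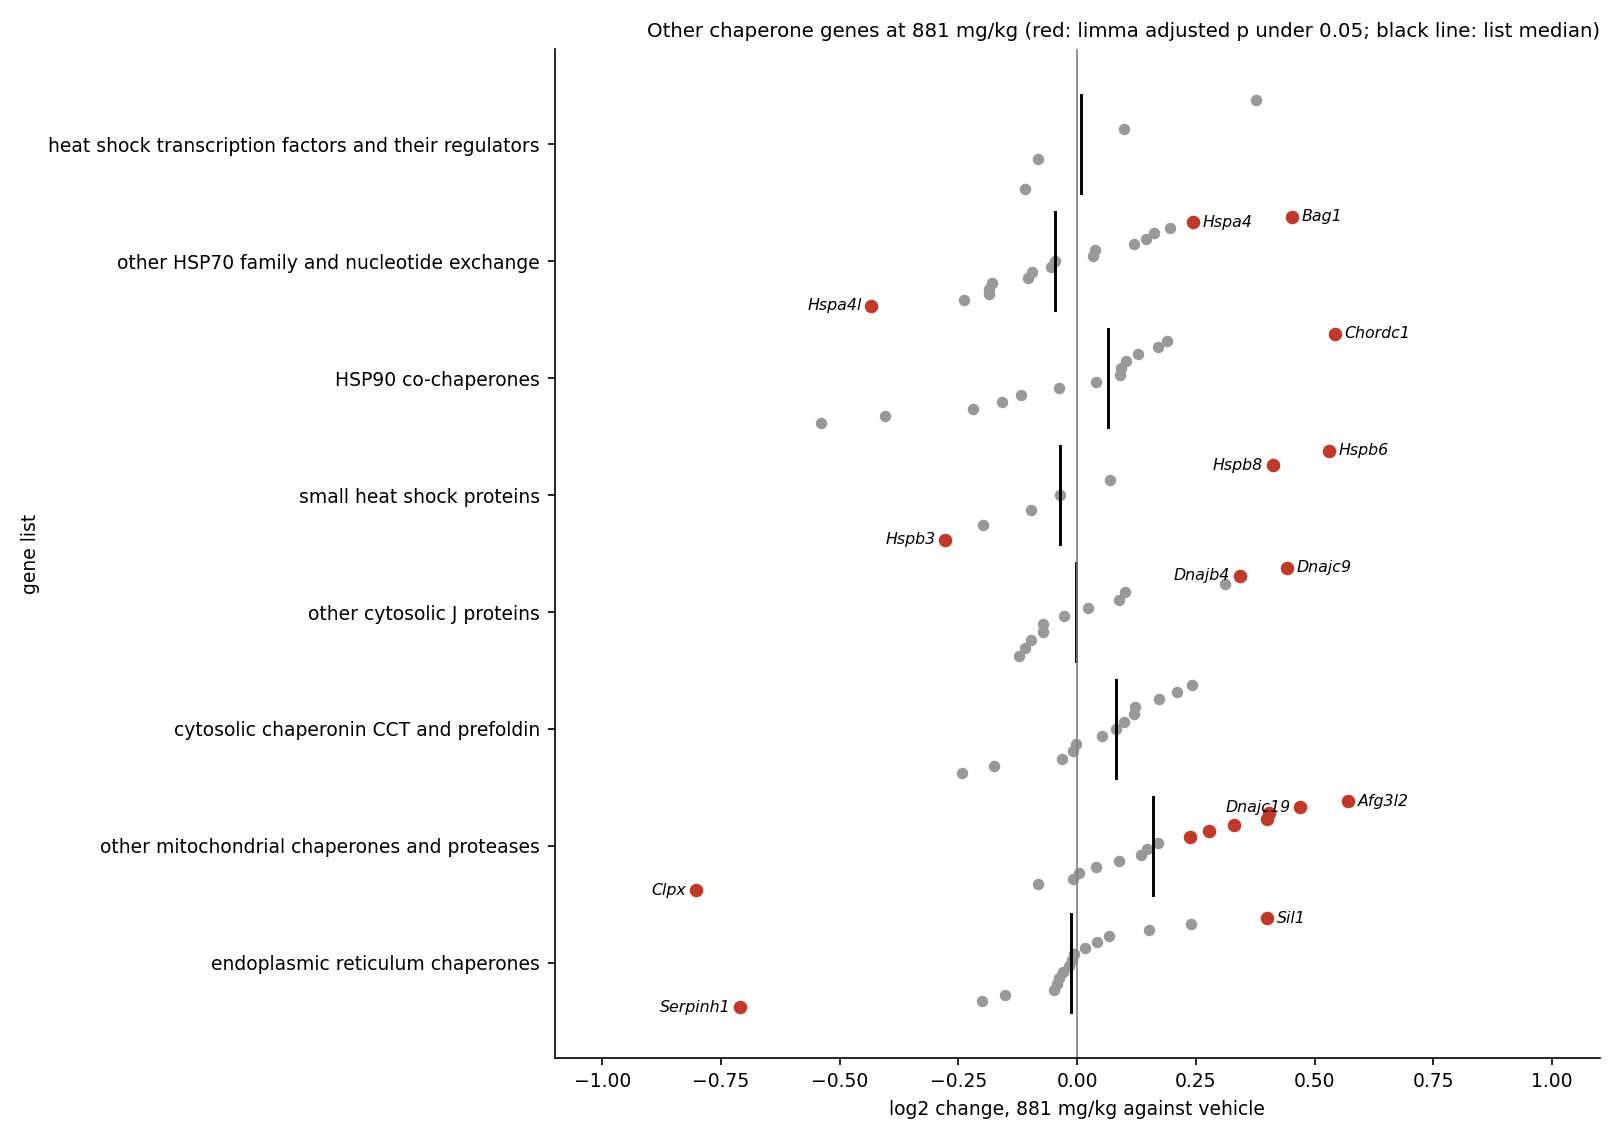
Log2 change at 881 mg/kg against vehicle (horizontal axis) of the other chaperone genes in 8 lists (vertical axis); each point is 1 gene, red marks an adjusted p under 0.05, and the black line is the list's median. Most genes lie near 0, and the mitochondrial list holds 7 red points above 0 and Clpx at -0.80.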

How the data were processed

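The authors deposited 1 log2 expression value for each probe set and array, made with RMA according to the submitters' processing notes. The values ran from 2.72 to 15.36, from which the log2 scale was taken. Neither the RMA version nor any batch is stated in the sources used here. Of 31099 probe sets, 57 controls were left out. The platform annotation in GEO may be dated; it named 1 gene for 20826 probe sets, more than 1 for 436 and no gene for 9780. A gene's brightest probe set, by its mean on the 20 arrays, stood for it in the gene tests; shared probe sets were tested only in a fit over all probe sets, and brighter and dimmer refer to the means of a gene's probe sets. The limma package (3.58.1, R 4.3.3) fitted 1 model of the 6 dose groups with lmFit and eBayes, with two-sided tests and Benjamini-Hochberg adjustment over all genes or all probe sets. The number of arrays limits the precision. Pairs were tested with 100000 permutations in Python 3.11.15 (NumPy 2.4.6, SciPy 1.17.1). The fits were tested on simulated data.

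The members and the gene lists were chosen with earlier results of these data known. Named were all members, from each chaperone list up to 3 called genes with the largest change at 881 mg/kg (1 gene where none was called), the 4 genes most like Hspa1b and Hspd1, and the pairs with the 3 highest r and the lowest, besides Hspd1 with Hspe1 and Hspa1b with Dnajb1. Hspa1a, Csf1r, Pecam1, C1qb and Col1a2 were named after their values were seen, as were Apoa1, Cyp2e1, Cps1, Serpina1, Cd3d, Cd79b and Epcam. Rose and fell are used of called genes. RefSeq also lists pseudogenes named after Hspa8 (33), Hsp90ab1 (23), Hspd1 (20), Hsp90aa1 (16), Dnaja1 (4) and Hspe1 (1), which the probes may read in part. The alternatives were other array scaling, probe set choice, filtering, variance prior, array weights, a Gapdh 3′ to 5′ covariate, only the compared groups, a replicate block and each array left out. Pairs and second probe sets without 881 mg/kg replicate 2 were added after seeing the data.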

Additional observations from a re-analysis of the deposited data

How the results depend on the processing

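Of 2884 alternative values of 105 member results, 2829 stayed on the same side of the threshold, 11 lost a call, 44 gained one and 0 reversed a called direction; 80 values changed sign without a call in either setting. The count of members called at 55 mg/kg went from 0 to 1 (Hspe1) with the filter on dim genes, the intensity trend prior, array weights and the Gapdh covariate. At 220 mg/kg it went from 0 to 1 (Hspb1) with array weights and with only the compared groups. At 440 mg/kg it was 1 (Dnajb1) with array centring, the filter, the prior and the Gapdh covariate, 2 (Dnajb1 and Hspe1) with array weights and 1 (Hspe1) with only the compared groups. At 881 mg/kg it was 2 (Dnaja1 and Hsph1) with centring, the filter and the prior, and 0 with the mean of a gene's probe sets, the Gapdh covariate and only the compared groups. The trend count was 2 (Dnajb1 and Hsph1) with the dose in mg/kg. Leaving out 1 array gave 0 to 1 members at 55, 0 to 0 at 110 and 220, 0 to 1 at 440, 0 to 3 at 881, 0 to 0 between 881 and 440 mg/kg and 1 to 2 for the trend. Without 881 mg/kg replicate 2 the calls went from 3 to 1 in the HSP70 list, 3 to 1 in the small heat shock protein list and 2 to 0 in the endoplasmic reticulum list; centring gave 2 in the CCT list. The Hsph1 call at 881 mg/kg held in 19 of 28 alternatives (adjusted p from 0.00536 to 0.308), and its values were 0.28 with the mean of its probe sets and 0.48 with the Gapdh covariate (adjusted p = 0.0508). The replicate numbers did not pair the samples by the rule used: same-numbered arrays of different groups deviated with a median r of 0.14 (-0.11 to 0.39 over 45 pairs). For differently numbered arrays the median r was -0.06 (-0.33 to 0.23 over 120 pairs). Moreover, 16 of 18 arrays correlated best with their own number, and the main model leaves that number out. With the replicate block the Dnajb1 slope was 0.08 (adjusted p = 0.0545), no longer called, and the Hsph1 slope was 0.09 (adjusted p = 0.0420), called. The block changed no other call of a member in the gene fit. Vehicle replicates 4 and 5 carry no weight in the block fit, as no other group holds their numbers. Blocking and the loss of these vehicle arrays cannot be told apart there. The causes were not tested. With 3 arrays a dose, SEs of the members' changes ran from 0.07 to 0.26 (log2), and changes as large as -0.59 (Hspb1 at 220 mg/kg) were not called.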
